A study of Homo sapiens with 5 samples.

Results

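Sterol and fatty acid synthesis genes were followed in C4-2B cells through ChIP-seq of H2A-K130ac. For this, 36 genes had been listed by name for their place in cholesterol synthesis, fatty acid synthesis and the control of both. Their peaks were found through the gene symbol that the authors' annotation gave to each peak, and 30 of the 36 genes were the assigned gene of at least 1 peak in either list, among 18339 genes in all. H2A-K130ac is acetylation of histone H2A at lysine 130, a mark read here with an antibody raised against the acetylated peptide. One library came from C4-2B cells given abiraterone, which blocks CYP17A1 and with it the making of androgens, and the other from C4-2B cells given the histone deacetylase inhibitor Romidepsin. C4-2B is a castration-resistant prostate cancer line derived from LNCaP, although its cell type is entered in the labels as breast cancer. The labels repeat the VCaP protocol for these 2 libraries and state no dose or duration for C4-2B, and neither the 3 VCaP samples nor untreated C4-2B cells entered the comparison. With 1 library per treatment there is no replicate check and no test between treatments, and the values below describe these 2 lists.

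Sterol synthesis runs from acetyl-CoA through mevalonate and squalene to lanosterol and cholesterol, and fatty acid synthesis draws on the same acetyl-CoA through malonyl-CoA. Both are switched on by the SREBP transcription factors, which are made as membrane proteins and held in the endoplasmic reticulum by the sterol sensor SCAP bound to an INSIG protein. When sterols fall, SCAP carries the precursor to the Golgi, site-1 protease (MBTPS1) starts its cleavage, and the freed fragment enters the nucleus and binds sterol regulatory elements, often beside NF-Y and Sp1 sites. Cholesterol is also the source of androgens, which prostate cancer cells can make for themselves.

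The abiraterone list held 67807 peaks and the Romidepsin list 91399, and a −log10 q of at least 2 was reached by 24.9% and 2.73% of them. The fold of a peak over its control spanned 1.79 to 18.0 under abiraterone and 1.74 to 10.5 under Romidepsin. Folds and q-values were not on 1 scale between the lists and were read within a list only. Of 8 prostate marker genes, HOXB13 had an abiraterone peak within 1 kb of a start site and none had one under Romidepsin. Of 7 breast marker genes, ESR1 and PRLR had one under abiraterone and none under Romidepsin. Among all genes in the tables, 9.89% had one under abiraterone and 15.2% under Romidepsin. Counts this small cannot separate the 2 tissues.

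At least 1 abiraterone peak was assigned to 22 of the 36 genes and at least 1 Romidepsin peak to 27, with 19 genes in both lists. Since a gene enters the tables only through a peak, the share was first taken over the 30 genes found there. It was 73.3% under abiraterone, where 74.1% of all genes in the tables had a peak, 90% under Romidepsin against 89.7%, and 63.3% in both lists against 63.8%. Over all 36 genes the shares were 61.1% and 75%, and of the protein-coding genes named in RefSeq 56.6% had an abiraterone peak and 68.6% a Romidepsin peak. Having a peak at all was therefore about as frequent among the lipid synthesis genes as among other genes.

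The 6 genes to which neither list assigned a peak were MVD, which decarboxylates mevalonate pyrophosphate, FDFT1, the squalene synthase, LSS, which closes the sterol rings, TM7SF2 and DHCR7, which are sterol reductases late in the pathway, and FASN, the fatty acid synthase. One abiraterone peak did carry an exon label of LSS, but the table assigned it to the neighbouring gene SPATC1L, whose start lay nearer. IDI1, CYP51A1 and SCD were assigned peaks under abiraterone and none under Romidepsin, although 1 Romidepsin peak inside SCD was assigned to OLMALINC. SREBF2, SCAP, MVK, PMVK, ACLY, FADS1, ACSL1 and LPIN1 were assigned peaks under Romidepsin and none under abiraterone. Inside SREBF2, FADS1, ACSL1 and LPIN1, however, lay 1, 1, 1 and 2 abiraterone peaks assigned to other genes. These 2 groups were 10% and 26.7% of the 30 genes. Of all genes in the tables, 74.1% had an abiraterone peak, 89.7% a Romidepsin peak and 63.8% both. Assignment in 1 list only was therefore about as frequent among all genes.

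In numbers of peaks, 106 abiraterone and 184 Romidepsin peaks were assigned to these genes. Romidepsin peaks outnumbered abiraterone peaks at 21 genes, abiraterone peaks outnumbered Romidepsin peaks at 7, and MBTPS1 and ACACB had equal numbers. The Romidepsin list was the longer, and 60.0% of all genes in the tables had more peaks under Romidepsin. Romidepsin peaks made up 63.4% of the peaks of both lists at the lipid synthesis genes (exact 95% binomial interval 57.6 to 69.0), above the 57.4% of all peaks. Among their distal intergenic peaks the share was 68.7% (61.0 to 75.7), and among the others 56.7% (47.6 to 65.5). Within 1 Mb of the genes on either side the share was 61.5%. Every interval given here covers counting error only, since the depth behind a peak is unknown.

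**Figure D1:**
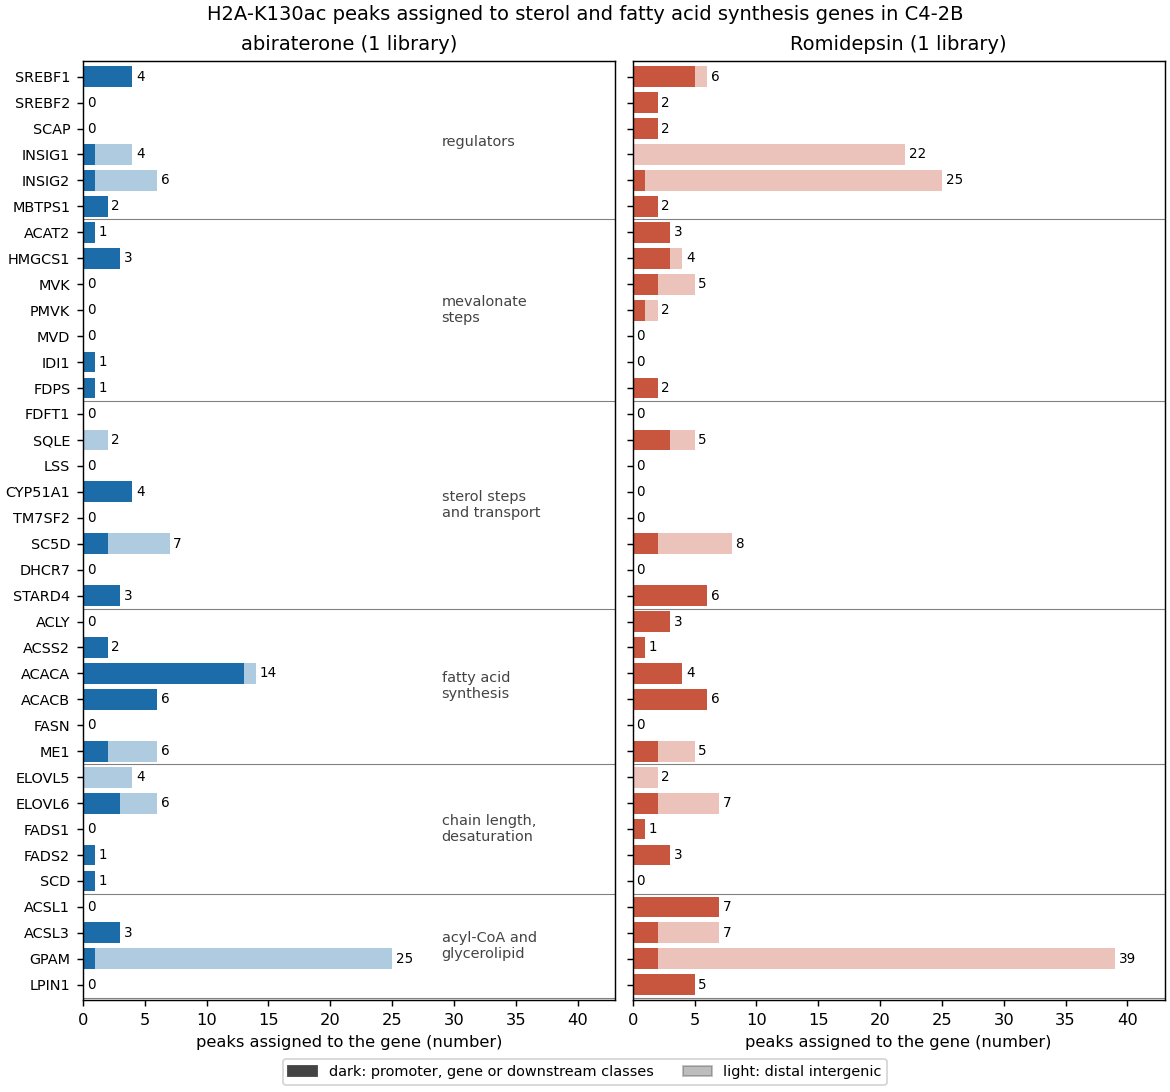
Number of H2A-K130ac peaks assigned to each of the 36 genes (horizontal axis, 1 library per panel), ordered by role. Dark bars are peaks labelled promoter, exon, intron, UTR or downstream, light bars distal intergenic peaks, and the number is the sum. GPAM stands out with 25 and 39 peaks, and INSIG1 and INSIG2 with 22 and 25 Romidepsin peaks, nearly all of them distal.

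A few loci held much of the total: GPAM, INSIG1 and INSIG2 together had 35 of the abiraterone peaks (33.0%) and 86 of the Romidepsin peaks (46.7%), of which 32 and 83 were distal intergenic. Without these 3 genes, left out after their counts were seen, the Romidepsin share was 58.0% (50.2 to 65.5), and with them alone it was 71.1% (62.1 to 79.0). The plot of peaks per gene shows the same genes as the longest bars.

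Among the regulators, SREBF1, which encodes SREBP-1 and controls chiefly the fatty acid genes, was assigned 4 abiraterone peaks and 6 Romidepsin peaks. A gene of its length of 19.5 kb had a median of 1 and 2 peaks in the 2 lists, and of the 200 genes nearest to it in length 31 and 34 had at least as many. Only 1 peak in each list lay inside the limits of SREBF1, at chr17:17722129-17722716 under abiraterone with a fold of 2.85 and at chr17:17727719-17728603 under Romidepsin with a fold of 2.61 (hg19). They did not overlap. Both were labelled promoter because they fell near alternative starts inside the gene, -441 and -775 bp from them, not near the outermost start. Another abiraterone peak, at chr17:17741366-17741827 with a fold of 2.82, was also labelled promoter and lay -1041 bp from the outermost start. Another Romidepsin peak was distal intergenic, -5383 bp from that start. A further 2 abiraterone and 4 Romidepsin peaks assigned to SREBF1 were labelled as introns or exons of the neighbouring gene TOM1L2. The abiraterone peak of highest fold of all those at the lipid synthesis genes was one of these, at chr17:17804184-17804875, -63859 bp from the SREBF1 start, and its fold was 6.27 at a −log10 q of 5.30. No peak in either list carried an exon label of SREBF1. Each peak has only 1 label, however, and the peaks inside the gene were labelled promoter. Whether they overlap exons was not checked.

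SREBF2, which encodes SREBP-2 and controls chiefly the cholesterol genes, had no abiraterone peak assigned and 2 Romidepsin peaks, both in an intron label, 3288 and 12815 bp downstream of the assigned starts and with folds of 3.44 and 2.58. One abiraterone peak lay inside SREBF2 but was assigned to another gene. SCAP had no abiraterone peak and 2 Romidepsin peaks, 1 of them 623 bp downstream of its start at chr3:47516698-47516822. MBTPS1 had 2 peaks in each list, none near a start site.

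INSIG1 and INSIG2, the proteins that retain SCAP in the endoplasmic reticulum, had more assigned peaks than most genes of their length, above all under Romidepsin. INSIG1 had 4 abiraterone and 22 Romidepsin peaks, and 25 and 6 of the 200 genes nearest in length had as many or more. INSIG2 had 6 and 25 peaks, matched or exceeded by 23 and 1 of the 200. The Romidepsin share was 84.6% at INSIG1 (65.1 to 95.6) and 80.6% at INSIG2 (62.5 to 92.5), while all peaks within 1 Mb of them had shares of 63.5% and 65.1%. All 22 Romidepsin peaks of INSIG1 were distal intergenic and lay -112106 to 79345 bp from its start, with none inside the gene. At INSIG1 the nearest peak was an abiraterone peak at chr7:155088156-155088633, -853 bp from the start, and its fold was 3.58 at a −log10 q of 2.02. The Romidepsin peaks of INSIG2 reached 324203 bp past its start, and 1 of the 25 lay in the gene, in its first intron. The assignment goes to the nearest start at any distance, and how much gene-free sequence lies around each gene was not measured.

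Of the 7 enzymes of the mevalonate steps, from acetyl-CoA to farnesyl pyrophosphate, 4 had abiraterone peaks (6 in all) and 5 had Romidepsin peaks (16 in all). FDPS, the farnesyl pyrophosphate synthase, was the gene at which both lists held a peak within 1 kb of the same start. The abiraterone peak at chr1:155277203-155277805 lay -734 bp from it with a fold of 2.83, and the Romidepsin peak at chr1:155278271-155278595 covered the start with a fold of 2.61. The pair did not overlap. A further Romidepsin peak lay at -1897 bp with a fold of 3.44. ACAT2, the thiolase that joins the first acetyl units, had an abiraterone peak -125 bp from its outermost start with a fold of 1.90, whereas its Romidepsin peak within 1 kb lay -109 bp from a start inside the gene, with a fold of 2.61. IDI1, the isomerase, had 1 abiraterone peak, 1206 bp from its start.

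HMGCS1, the synthase ahead of mevalonate, had 3 abiraterone and 4 Romidepsin peaks, yet 2 and 3 of these were labelled as the neighbouring gene NIM1K, and the fourth Romidepsin peak was distal. At HMGCS1 the lists did overlap, at chr5:43277075-43277406 under abiraterone and chr5:43277137-43277404 under Romidepsin, sharing 268 bp in an exon label of NIM1K. The phosphorylating enzymes MVK and PMVK had 5 and 2 Romidepsin peaks, none of them in the promoter classes.

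The 8 genes of the later sterol steps and of sterol transport included 4 of the 6 without a peak. SQLE, the squalene epoxidase, had 2 abiraterone peaks, both distal, at -7856 and -7486 bp, and 5 Romidepsin peaks. Of the latter, 1 lay 561 bp downstream of the start with a fold of 3.77, and another, 1484 bp downstream, had a fold of 5.15, the fifth highest among Romidepsin peaks at these genes. CYP51A1, the lanosterol demethylase, had 4 abiraterone peaks and no Romidepsin peak. One of the 4, at chr7:91763885-91764343, covered its start, with a fold of 1.839, near the lowest fold in the list. SC5D, a sterol desaturase, had 7 and 8 peaks in the 2 lists, 5 and 6 of them distal, including an abiraterone peak at -22973 bp with a fold of 5.37. STARD4, a cytosolic sterol carrier, had 3 and 6 peaks, of which every one was labelled as the first intron of STARD4-AS1, the antisense gene beside it, at distances of -23048 to -107258 bp.

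In fatty acid synthesis proper, ACACA stood apart in the opposite direction from the INSIG genes. ACACA encodes acetyl-CoA carboxylase 1, which makes malonyl-CoA, and it had 14 abiraterone peaks and 4 Romidepsin peaks, a Romidepsin share of 22.2% (6.41 to 47.6) where the sequence within 1 Mb on either side held 28 abiraterone and 72 Romidepsin peaks. At 325 kb it was the longest of these genes, and genes of similar length had a median of 10 and 12 peaks. Of the 200 nearest in length, 63 had at least 14 abiraterone peaks and 177 at least 4 Romidepsin peaks. The 14 abiraterone peaks had folds between 1.88 and 3.78 and spread over the gene. Its promoter labels came from starts inside the gene, at -101 and -400 bp under abiraterone and at 959 bp under Romidepsin. ACACB, the mitochondrial carboxylase, had 6 peaks in each list, with the second highest fold in both (tied with an INSIG1 peak under Romidepsin), 5.70 at chr12:109664511-109664770 under abiraterone and 5.23 at chr12:109675557-109675840 under Romidepsin.

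ACLY, which makes cytosolic acetyl-CoA from citrate, had 3 Romidepsin peaks, all in its introns, and no abiraterone peak. ACSS2, which makes acetyl-CoA from acetate, had 2 abiraterone peaks in an intron, each with a −log10 q of 2.66, and a single Romidepsin peak -183 bp from its outermost start, at chr20:33462010-33462583, with a fold of 4.35. ME1, the malic enzyme that supplies NADPH, had 6 and 5 peaks, of which 4 and 3 were distal. At ME1 the lists overlapped at 3 pairs of peaks, 2 of them with the same Romidepsin peak at -33353 bp.

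The 5 enzymes of chain elongation and desaturation had no peak within 1 kb of a start in either list. ELOVL6, the elongase of long saturated chains, had 6 abiraterone and 7 Romidepsin peaks, and each of the 6 abiraterone peaks reached a −log10 q of 2, as 24.9% of that list did. ELOVL5, the elongase of polyunsaturated chains, had 4 and 2 peaks, all distal intergenic, with 3 and 2 more labelled in its introns or exons that the tables assigned elsewhere. FADS1 and FADS2, the desaturases of polyunsaturated chains, were assigned no and 1 abiraterone peak and 1 and 3 Romidepsin peaks. Inside FADS1 lay 1 abiraterone peak assigned to another gene. SCD, which makes oleate, had 1 abiraterone peak, 2785 bp from its start, and no Romidepsin peak assigned. A Romidepsin peak in an SCD intron, with a fold of 3.44, was assigned to OLMALINC.

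The last 4 genes act in fatty acid activation and glycerolipid synthesis. ACSL1, an acyl-CoA synthetase, had no abiraterone peak and 7 Romidepsin peaks, all in promoter, intron or UTR labels. The Romidepsin share of 100% (59.0 to 100) at ACSL1 compared with 66.1% for all peaks within 1 Mb. Among the 7, 3 lay within 1 kb of a start, at 0, -547 and 282 bp, the last near the outermost start at chr4:185728662-185729323 with a fold of 4.30. A further 1 abiraterone and 4 Romidepsin peaks in ACSL1 introns were assigned to SLED1, and in all 1 and 13 peaks lay inside its limits. ACSL3, another synthetase, had 3 and 7 peaks, with 2 abiraterone peaks at -993 and -669 bp.

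GPAM, which starts glycerolipid synthesis by acylating glycerol 3-phosphate, had the most peaks of the 36 genes in both lists, 25 under abiraterone and 39 under Romidepsin. Of the 200 genes nearest in length, 2 and 0 had as many. All but 1 and 2 of these peaks were distal intergenic, and they reached 540305 bp past the start in the direction of transcription. The highest fold among Romidepsin peaks at these genes was here, 7.56 at chr10:113516617-113517087, 426381 bp from the GPAM start, and it ranked 33 in the whole list. One abiraterone peak lay 334 bp from a GPAM start with a fold of 2.80. LPIN1, a phosphatidate phosphatase, had 5 Romidepsin peaks and no abiraterone peak assigned, although 2 abiraterone peaks in its body were assigned to MIR4262.

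**Figure D2:**
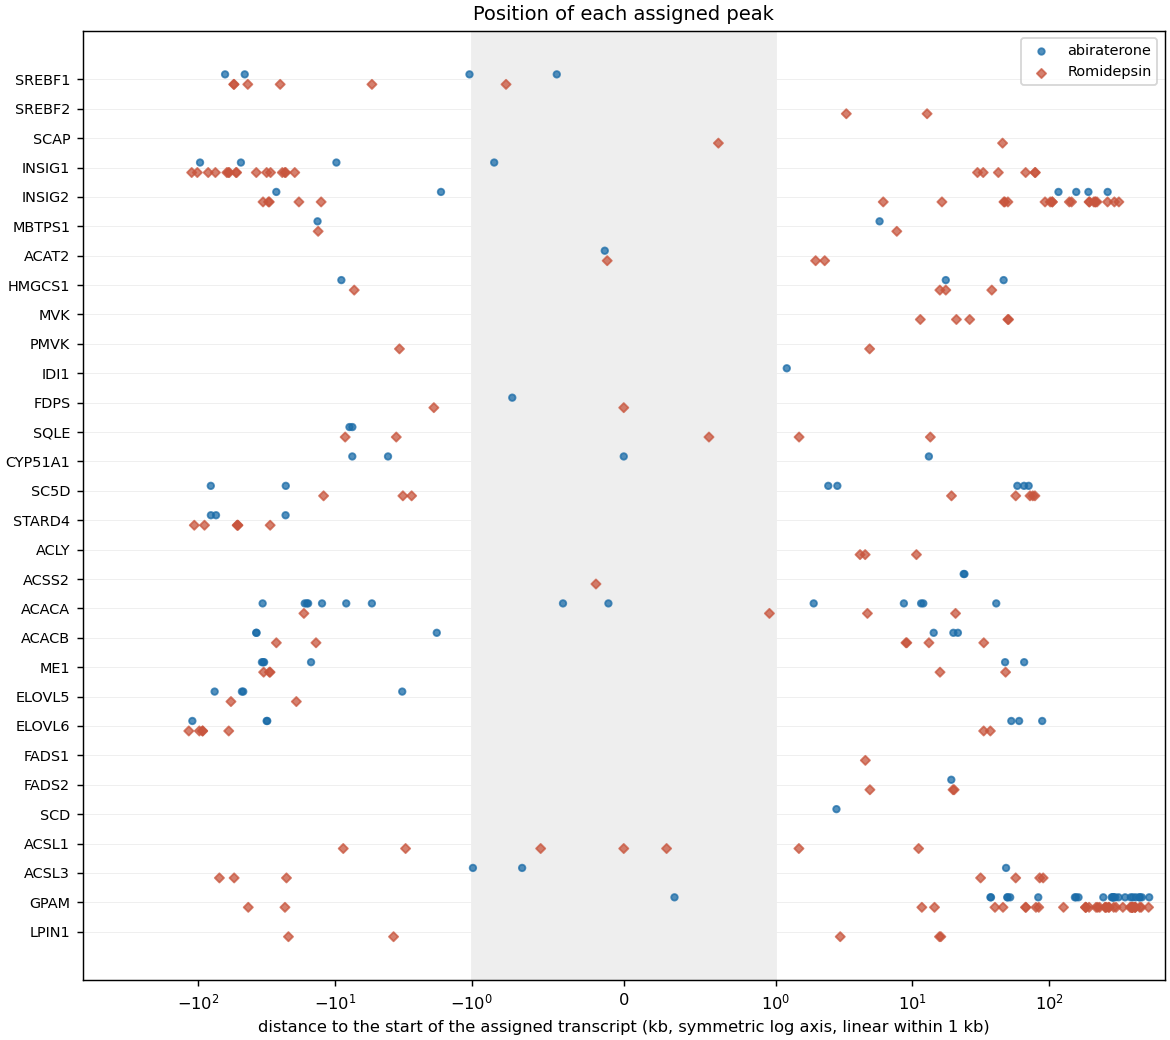
Distance of every assigned peak from the start of its assigned transcript (horizontal axis in kb, linear within 1 kb and logarithmic beyond, upstream negative), for the 30 genes with a peak; circles are abiraterone, diamonds Romidepsin, and the grey band is 1 kb either side of the start. Few peaks lie in the band, 10 in each list, and the peaks of GPAM run downstream to more than 500 kb.

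By annotation class, promoter labels were more frequent among the abiraterone peaks at these genes than in the list as a whole when every peak was counted. This was not seen among the few abiraterone peaks of higher confidence. Of 106 peaks, 18 lay within 3 kb of a start (16.98%, 10.4 to 25.5), against 7.58% of all abiraterone peaks. Within 1 kb lay 10 (9.43%, 4.62 to 16.7), against 3.17%. The 18 included pairs within 500 bp of each other at ACACA, ACSL3 and SC5D, each pair counted as 2. These intervals take such peaks as independent. Among abiraterone peaks at a −log10 q of 2 or more, 2 of 32 lay within 3 kb (6.25%, 0.766 to 20.8), against 7.63% of all such peaks. That interval covers both 7.63% and 16.98%, so these peaks are too few to show a change of direction. At the same threshold, 2 of 8 Romidepsin peaks lay within 3 kb (25%, 3.19 to 65.1), against 9.14% of all such peaks. For Romidepsin 17 of 184 lay within 3 kb (9.24%, 5.47 to 14.4), against 8.85% of all, and 10 within 1 kb (5.43%, 2.64 to 9.77), against 3.52%. Distal intergenic peaks made up 48.1% and 60.9% (53.4 to 68.0), against 48.4% and 48.0% of all, and introns after the first 26.4% and 14.1% (9.44 to 20.02), against 28.6% and 27.1%. With GPAM, INSIG1 and INSIG2 left out, the share within 3 kb under Romidepsin was 17.3%.

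**Figure D3:**
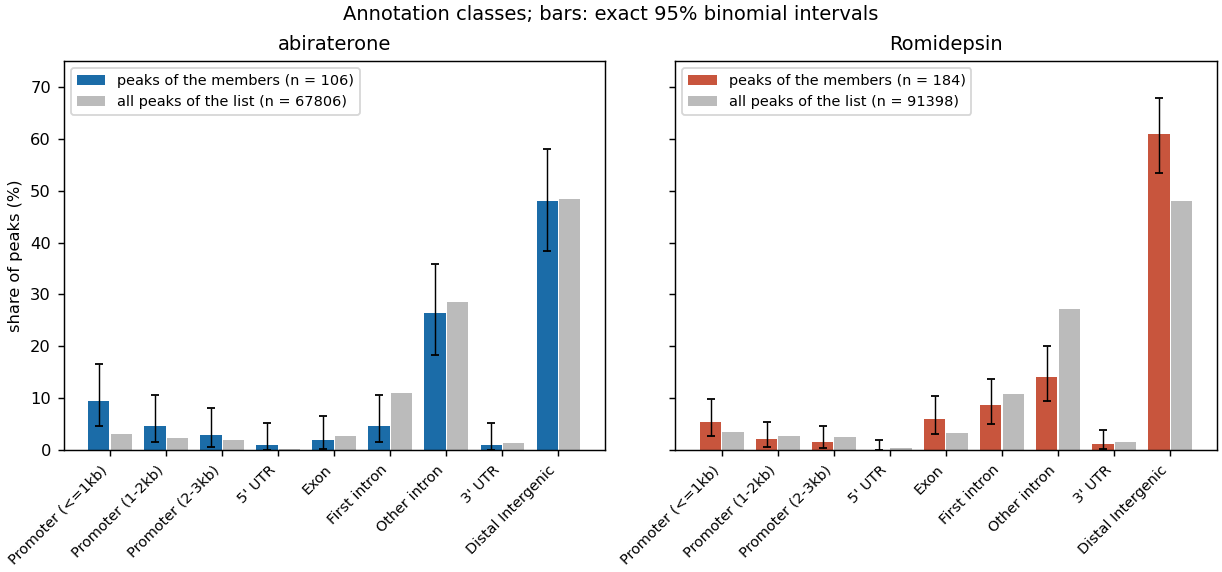
Share of peaks in each annotation class (vertical axis, %), for peaks assigned to the lipid synthesis genes (coloured) and for all peaks of the list (grey), 1 library per panel; bars on the coloured columns are exact 95% binomial intervals. Under abiraterone the interval of the class within 1 kb lies above the grey bar of 3.17%, and under Romidepsin that of the distal class lies above 48.0%.

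Counted by gene, 8 genes in each list had a peak within 1 kb of a start, 26.7% of the 30 in the tables (12.3 to 45.9), where 9.89% of all genes had one under abiraterone and 15.2% under Romidepsin. Under abiraterone these were SREBF1, INSIG1, FDPS, CYP51A1, ACACA, ACSL3, GPAM and ACAT2, and under Romidepsin SREBF1, SCAP, FDPS, SQLE, ACACA, ACSL1, ACAT2 and ACSS2. The 4 genes in both lists were SREBF1, FDPS, ACACA and ACAT2. At the outermost start that the tables give, 6 of the 8 genes had the peak under abiraterone and 5 of the 8 under Romidepsin, the others having it at starts inside the gene. Only 1 abiraterone peak, at CYP51A1, and 2 Romidepsin peaks, at ACSL1 and FDPS, covered a start.

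The bases before the starts of these genes were taken from RefSeq (GRCh38.p14), in which 32 of the 36 genes matched and had 50 starts. Shown are FDPS, with a promoter peak in both lists, CYP51A1 and ACSS2, with one in abiraterone and Romidepsin respectively, and SREBF2 and ACSL1, the 2 genes with a match to the sterol regulatory element. Each is the 250 bases up to the start, 5′ to 3′ in the gene's direction, at chr1:155308616-155308865 (+), chr7:92134478-92134727 (-), chr20:34874739-34874988 (+), chr22:41832855-41833104 (+) and chr4:184805554-184805803 (-), and capitals mark matches on either strand to the letters searched: TCACNCCAC, a sterol regulatory element, CCAAT, bound by NF-Y, GGGCGG, bound by Sp1, and CACGTG, an E-box that SREBP-1 also binds. The 4 motifs were searched one by one, so matches to different motifs may overlap.
FDPS: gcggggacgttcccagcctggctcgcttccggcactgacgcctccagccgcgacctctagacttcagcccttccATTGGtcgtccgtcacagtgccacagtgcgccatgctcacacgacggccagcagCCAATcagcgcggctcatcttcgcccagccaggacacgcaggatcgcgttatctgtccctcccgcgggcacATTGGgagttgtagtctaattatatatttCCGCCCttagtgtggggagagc
CYP51A1: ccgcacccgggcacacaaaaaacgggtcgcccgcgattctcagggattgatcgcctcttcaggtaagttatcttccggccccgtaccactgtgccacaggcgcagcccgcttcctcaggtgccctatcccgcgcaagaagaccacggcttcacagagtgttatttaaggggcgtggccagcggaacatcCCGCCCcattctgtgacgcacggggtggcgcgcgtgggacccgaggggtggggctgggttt
ACSS2: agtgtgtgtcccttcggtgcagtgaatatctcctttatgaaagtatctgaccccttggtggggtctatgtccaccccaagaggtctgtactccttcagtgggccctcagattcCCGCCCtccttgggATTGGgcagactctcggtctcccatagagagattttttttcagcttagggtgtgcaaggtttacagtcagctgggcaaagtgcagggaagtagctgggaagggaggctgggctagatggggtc
SREBF2: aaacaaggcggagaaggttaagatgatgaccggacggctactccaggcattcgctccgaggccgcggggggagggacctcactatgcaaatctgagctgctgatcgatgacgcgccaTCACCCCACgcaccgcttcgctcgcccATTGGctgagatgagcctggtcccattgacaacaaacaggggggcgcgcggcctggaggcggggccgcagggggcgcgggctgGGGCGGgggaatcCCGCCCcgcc
ACSL1: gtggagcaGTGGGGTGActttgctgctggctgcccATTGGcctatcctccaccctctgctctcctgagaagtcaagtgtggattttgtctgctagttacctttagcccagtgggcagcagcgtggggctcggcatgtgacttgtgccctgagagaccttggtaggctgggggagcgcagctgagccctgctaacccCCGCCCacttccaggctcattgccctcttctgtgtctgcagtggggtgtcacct
FDPS had 3 matches to CCAAT and 1 to GGGCGG in these bases, while CYP51A1 had 1 to GGGCGG and ACSS2 1 to each. SREBF2 and 1 of the 5 starts of ACSL1 held TCACNCCAC, which makes 4% of the 50 starts, against 0.883% of all 35116 starts in the table. SREBF2 had no peak within 1 kb of a start in either list. Which RefSeq start of ACSL1 or ACSS2 corresponds to the start beside a peak could not be read from the tables, since the builds differ. CCAAT was found in 48% of the 50 starts against 32.0% of all, GGGCGG in 80% against 42.6% and CACGTG in 10% against 6.34%. These are matches of letters, and no binding was measured.

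Set against gene length and over every class, the 30 genes had about as many peaks as genes like them. The median was 0.0416 abiraterone peaks per kb and 0.0743 Romidepsin peaks per kb, against 0.0451 and 0.0703 for the 200 genes nearest in length to each. Without distal intergenic peaks the medians were 0.0340 and 0.0430, against 0.0200 and 0.0408. In these non-distal peaks, 8 genes lay above the upper quartile of genes of similar length under abiraterone (SREBF1, INSIG1, HMGCS1, CYP51A1, SC5D, ACACA, ACACB and STARD4), and 10 did so under Romidepsin (SREBF1, HMGCS1, MVK, FDPS, SQLE, ACLY, FADS2, ACSL1, ACAT2 and STARD4). These were 26.7% (12.3 to 45.9) and 33.3% (17.3 to 52.8) of the 30, and 24.2% and 25.0% of all genes lay above that quartile of their own length, so the counts were near the background. SREBF1, HMGCS1 and STARD4 were above it in both lists, and at each of them peaks with the label of a neighbouring gene were among those counted. ACSL1 under Romidepsin and CYP51A1 under abiraterone had 7 and 4 non-distal peaks against medians of 2 and 1, and 7 of the 200 genes of similar length had as many in each case. Of the 4 CYP51A1 peaks, 2 lay outside the gene, at -4105 and -7494 bp, in an exon label of another transcript and a 3′ UTR label. ME1 lay at the other end, with 2 non-distal peaks in each list against medians of 4.5 and 6 for its length of 221 kb.

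**Figure D4:**
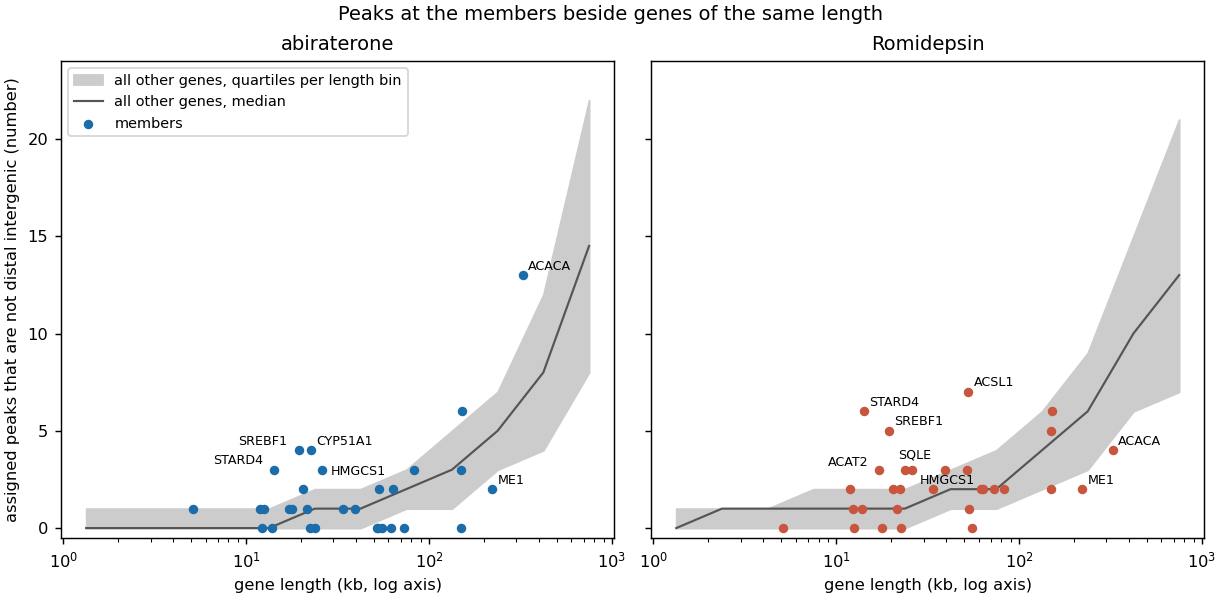
Number of assigned peaks that are not distal intergenic (vertical axis) against gene length (kb, log axis), 1 library per panel; points are the 30 lipid synthesis genes, the grey band and line the quartiles and median of all other genes in bins of length. Most points lie within or near the band, ACSL1 with 7 Romidepsin peaks and SREBF1, STARD4 and CYP51A1 above it, ME1 below.

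Some peaks inside these genes were assigned to others. Of the peaks inside the limits of the 30 genes, 54 under abiraterone and 75 under Romidepsin, 15 and 20 were assigned to another gene whose start was nearer. At ME1, 3 abiraterone and 8 Romidepsin peaks lay within its limits, 6 of the latter assigned to PGM3. Per Mb of gene the peaks within limits came to 29.5 and 40.9, beside 26.9 and 42.9 in the flanks of 1 Mb.

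Median folds of the peaks at these genes were the same as in the lists as a whole. The median fold was 2.83 for their abiraterone peaks and 2.61 for their Romidepsin peaks, equal to the medians of all peaks, and 1 value of q was shared by 54.7% and 51.6% of them, as by 50.5% and 50.9% of all. A −log10 q of at least 2 was reached by 32 abiraterone peaks (30.2%, 21.7 to 39.9, against 24.9%) and by 8 Romidepsin peaks (4.35%, 1.90 to 8.39, against 2.73%). Such peaks were found at 12 genes under abiraterone, 40% of those in the tables where 40.4% of all genes had one, and at 6 genes under Romidepsin, 20% (7.71 to 38.6) against 11.4%. The 6 were INSIG1, INSIG2, SQLE, ACACB, ACSL1 and GPAM.

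**Figure D5:**
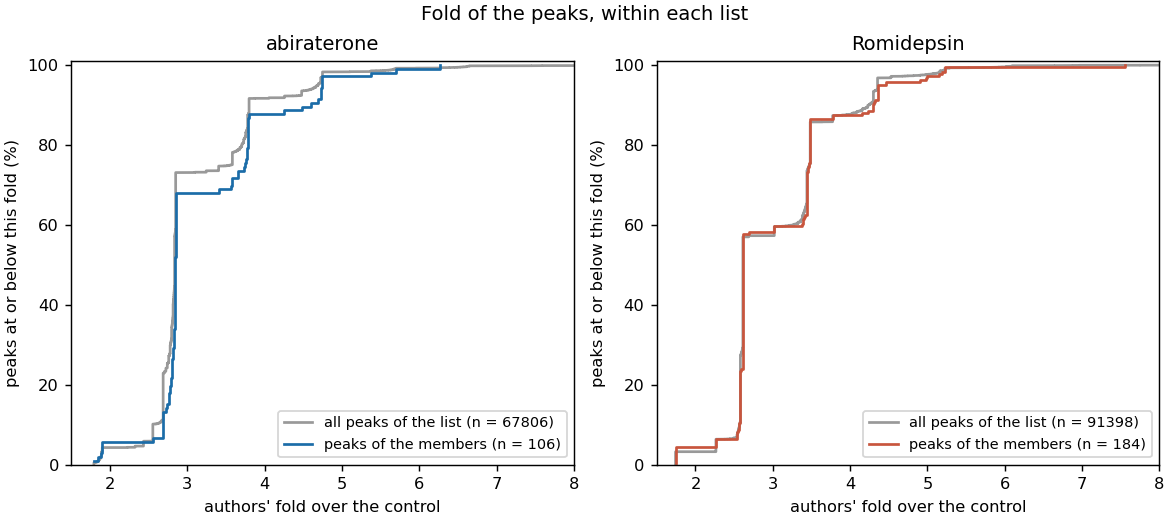
Cumulative share of peaks (vertical axis, %) at or below each fold over the control (horizontal axis), for peaks of the lipid synthesis genes (coloured) and all peaks of the list (grey), 1 library per panel. The curves run close together, and the steps mark folds shared by many peaks, such as the medians of 2.83 and 2.61.

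Narrow and closely spaced peaks were common. At most 130 bp wide were 16 abiraterone peaks (15.1%, against 23.0% of all) and 35 Romidepsin peaks (19.0%, against 15.7%), and 15 and 20 of these had another peak within 500 bp. Counting peaks of every width, 20.7% of Romidepsin peaks at these genes (15.0 to 27.2) had another within 500 bp, against 10.3% of the list, and 18.9% of abiraterone peaks did so, against 25.8%. The 2 abiraterone peaks before the ACSL3 start and the pair before SQLE were of this kind, so such a pair counted as 2.

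Few peaks were shared between the treatments. Of the 106 abiraterone peaks, 7 shared at least 1 bp with a Romidepsin peak (6.60%, 2.70 to 13.1), against 4.04% of all, and of the 184 Romidepsin peaks, 6 did so with an abiraterone peak (3.26%, 1.21 to 6.96), against 2.90%. The overlaps were at INSIG2, HMGCS1, ME1 and GPAM, and none lay in a promoter class. Hence at no lipid synthesis promoter did the lists hold the same peak, FDPS included. With overlap this rare over all peaks, few or none would be looked for among so few promoter peaks. The overlapped share of all promoter peaks was not computed.

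The genes whose own Romidepsin share had an interval apart from the 57.4% of all peaks were INSIG1, INSIG2 and ACSL1 above it and ACACA below it. An interval above it was found for 1.79% of all genes and one below it for 2.74%, against 10% and 3.33% of the 30 lipid synthesis genes. These intervals take peaks as independent, which closely spaced peaks are not.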

How the data were processed

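H2A-K130ac ChIP-seq peaks of C4-2B cells were taken from the deposited lists of 1 abiraterone and 1 Romidepsin library. Per the paper's methods, reads were aligned with Bowtie 2 and peaks called with MACS, and GEO's processing notes name MACS2 and hg38. A study form describes duplicates, a broad setting and a vehicle control, whereas the files hold narrow peaks over input, and whether duplicates were pooled is not given in the sources used here. The deposited score of each peak was made by the authors' caller and equals the whole part of 10 times the −log10 p. The fold of each peak over its control is the authors' ratio, and each −log10 p-value and −log10 q-value likewise came from the authors' caller. All were used only within a list. The authors' annotation gave each peak a class, the nearest start and a gene symbol, and its first peak was lost to the header line. The UCSC identifiers and a last chromosome 1 peak ending at 249191832 place the coordinates in hg19, although the notes say hg38. Read depth behind each peak is unknown.

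Peaks were counted by symbol, class and per kb of the annotated gene length, beside the 200 genes nearest in log length. Only genes with a peak have a length there. A peak labelled in 1 gene can be assigned to another, and both were counted. A gene's limits were those of its outermost transcripts over both tables. Genes sharing a start region cannot be told apart by this assignment. Shares have exact (Clopper-Pearson) 95% binomial intervals, for counting error only. No test was made, since each treatment had 1 library. The counting was tested on simulated peaks. RefSeq (GRCh38.p14) gave gene classes and the bases before starts, and 18316 of 18406 gene identifiers matched. The scripts ran on Python 3.11.15 with matplotlib 3.10.9, scipy 1.17.1, pandas 2.3.3 and numpy 2.4.6.

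The genes and lists were chosen with earlier results of these data known. Described singly were SREBF1 and SREBF2, genes with a peak within 1 kb of a start, the 5 genes with most peaks and per list the 5 of these genes' peaks that had the highest folds, genes whose Romidepsin share had an interval apart from that of all peaks, and genes without a peak. Other genes among the 36 that are described, and the genes named as hosts of a label, were added after their values were seen. The settings varied were a minimum −log10 q of 2, the conservative tables, no distal peaks, peaks within gene limits, a 1 kb promoter, the limits' span as length, overlap of 50% of both peaks, genes within 10% of the length, RefSeq protein-coding genes as background, and leaving out GPAM, INSIG1 and INSIG2. Values of some further genes of the pathway are not reported here.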

Additional observations from a re-analysis of the deposited data

How the results depend on the processing

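Of 57 alternatives over 15 results, 30 stayed within the counting error or within 1.5 times the count and 27 moved. Where only peaks at −log10 q of 2 or more were kept, the genes with a peak numbered 12 under abiraterone and 6 under Romidepsin. The peaks numbered 32 and 8, and the median peaks per kb were 0 and 0. The share within 3 kb of a start was 6.25% and 25%, and the overlapped share 0% and 0%. The Romidepsin share of peaks was 20%, since that threshold keeps a larger part of the abiraterone list. Of all peaks it kept 16900 abiraterone and 2495 Romidepsin peaks, a lower Romidepsin share than at these genes. Without distal intergenic peaks, 55 and 72 peaks remained, the promoter share was 32.7% and 23.6%, the Romidepsin median 0.0430 per kb and the Romidepsin share 56.7%. Counting peaks within gene limits gave 54 and 75 peaks and medians of 0.0275 and 0.0405 per kb. Promoters of 1 kb took 9.43% and 5.43% of peaks. Over RefSeq protein-coding genes, 56.6% and 68.6% had a peak. Leaving out GPAM, INSIG1 and INSIG2, a choice made after seeing the data, left 98 Romidepsin peaks, 17.3% of them within 3 kb of a start. The conservative tables, the span as length, the 50% overlap and the other choice of genes of similar length moved no result. No paired analysis was possible because there was 1 library per treatment and hence no test. Replicate spread, and any difference that comes from depth or from the peak caller's threshold, cannot be told from these lists.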

Other observations

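Of 33 further genes of sterol and fatty acid metabolism, 31 were in the tables and NPC2 and NR1H2 were not. Abiraterone peaks numbered 68 at 22 of these genes and Romidepsin peaks 104 at 29, which were 71.0% and 93.5% of the 31, near the 74.1% and 89.7% of all genes in the tables. Under abiraterone the most peaks were at ACSL6, an acyl-CoA synthetase, with 8, and HSD17B12, an enzyme of fatty acid elongation, and SOAT1, which esterifies cholesterol, had 7 each. Under Romidepsin the most were at ABCA1, a cholesterol exporter, with 13, and at ABCG1, another exporter, ACSL4 and ACSL6, both acyl-CoA synthetases, with 9 each. A peak within 1 kb of a start was found at 1 of the 33 under abiraterone and at 7 under Romidepsin, where 9.89% and 15.2% of all genes in the tables had one. MSMO1, NSDHL and DGAT2, named after their values were seen, had 3, 2 and 5 Romidepsin peaks and no abiraterone peak.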
